A study of Mus musculus with 8 samples.

Results

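Genes of the autophagy machinery and its cargo receptors were described across 3 states of mouse bone marrow-derived macrophages. The set held 31 listed genes, grouped by their step in autophagy. Of these, 30 had at least 1 probe set annotated to their symbol alone, out of 18193 genes with such a probe set, and each is given by its probe set with the highest mean log2 intensity over the arrays. The remaining gene, Optn, which encodes the receptor optineurin, was not analysed here.

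The macrophages came from wild-type C57BL/6J mice, and bone marrow cells were cultured with L929 cell supernatant, a source of macrophage colony stimulating factor, until day 7. The cells were then replated in medium that lacked this supernatant, so all 3 groups shared its withdrawal. For 24 hours, M1 macrophages were given IFN-γ (20 ng/ml) together with LPS (100 ng/ml) on 3 arrays, M2 macrophages IL-4 (20 ng/ml) on 2 arrays, and M0 macrophages medium without additions on 3 arrays. According to the labels, replicates within a condition derive from separate mice. The methods are less clear on how mice and in vitro replicates were combined, so n counts arrays, and if cultures of 1 mouse were among them the p-values measure partly technical spread. Values are RMA intensities of Affymetrix Mouse 430 2.0 arrays on a linear scale, called units, and they describe transcripts, not proteins or autophagic flux.

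Autophagy delivers parts of the cytoplasm to the lysosome inside a membrane that grows around them. The ULK1 complex starts the process, a class III phosphatidylinositol 3-kinase marks the membrane with the lipid PI3P, vesicles that carry ATG9A bring membrane, and proteins of the WIPI family bind PI3P. A pair of ubiquitin-like conjugation systems then attaches proteins of the Atg8 family, which include LC3B, to the growing membrane. Cargo receptors such as p62, the product of Sqstm1, bridge ubiquitinated cargo and these Atg8 proteins. In macrophages this route takes up intracellular bacteria and damaged organelles and restrains inflammasome activity.

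All comparisons came from a single limma fit of the 8 arrays over 45037 probe sets, and a gene was called at a Benjamini-Hochberg adjusted p under 0.05 over all of them. The array medians lay between 38.9 and 40.4 units, and arrays of a condition correlated at 0.994 to 0.997 across probe sets. The labels held in the values. Il6 was at 753 units or more on every M1 array against at most 9.46 units on the M0 arrays. Il12b was at 1197 units or more on the M1 arrays against at most 16.6 units in M0. Retnla was at 8086 units or more on both M2 arrays against at most 37.2 units in M0. Mgl2 was at 6608 units or more on the M2 arrays against at most 26.0 units in M0. Il6 was also called higher in M2 than in M0, at 35.8 and 104 units (log2 difference 2.77, adjusted p = 0.00498 from limma). All 7 macrophage markers examined averaged above 64 units. Their summed levels were 60406 to 62467 units in M1, 50880 to 53862 units in M2 and 70046 to 72901 units in M0. Single markers differed from M0. Fcgr1 (log2 difference -3.28), Adgre1 (-1.08), Mertk (-1.08) and Lyz2 (-0.38) were called lower in M2, and Mertk (-0.85) and Cd68 (-0.72) in M1. The markers of neutrophils (0 of 5), T cells (0 of 4) and NK cells (0 of 3) averaged under 64 units. Of the B cell markers 1 of 4 averaged above 64 units, Ighm, with a summed list level of 204 to 215 units in M1, 245 to 247 units in M2 and 615 to 820 units in M0. Of the fibroblast markers 1 of 5 averaged above 64 units, Col1a2, which was not called against M0. The summed list level was 186 to 326 units in M1, 152 to 252 units in M2 and 134 to 163 units in M0. Dcn, a dimmer marker of this list, was called higher in M1 than in M0 (log2 difference 1.18, adjusted p = 1.7e-04 from limma). The part of either list in the results that follow was not tested.

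LPS with IFN-γ moved 15 of the 30 measured genes. In M1 macrophages 10 genes were higher than in M0 macrophages, all 3 of the ATG9 and WIPI group, 4 of the 7 conjugation genes, 2 of the 4 receptors and 1 of the 6 genes of the PI3-kinase complex. Another 5 were lower, 2 of the 4 initiation genes, 1 of the PI3-kinase complex, 1 receptor and Map1lc3b, the gene of LC3B. Sqstm1 was the one gene to reach 2-fold, a size that limma called in 6% of all genes and 9.62% of those averaging above 64 units. Across all 18193 genes, limma called 13.7% higher and 11.5% lower in M1. Since all 30 members averaged above 64 units, the 9856 genes above that level are the closer background, and among them it called 22.6% higher and 18.2% lower, against 33.3% and 16.7% of the members. The share of members called in either direction, 50%, stood beside 25.2% of all genes and 40.8% of the genes above 64 units. The median log2 difference was 0.12 over the members and 0.03 over the genes above 64 units. In such bulk RNA, a change in the share of cells that express a gene and a change in RNA per cell cannot be told apart.

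In M2 macrophages 1 gene, Sqstm1, was higher than in M0 macrophages and 4 were lower, and none reached 2-fold, as 3.68% of all genes and 5.89% of those above 64 units did. The share called either way was 16.7% of the members, against 14.5% of all genes and 23.5% of the genes above 64 units. Higher calls made up 3.33% of the members, against 8.03% of all genes and 12.9% of those above 64 units. For lower calls the shares were 13.3% of the members, 6.43% of all genes and 10.5% of those above 64 units. The median log2 difference was -0.04 over the members and 0.03 over the genes above 64 units. Both comparisons used the same M0 arrays. Sqstm1 was the one gene called in both of them. Another 9 genes were called higher in M1 and not called in M2, 5 were called lower in M1 and not called in M2, and 4 were called lower in M2 and not called in M1. Whether such genes differed between M1 and M2 is given by the direct comparison of these states.

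**Figure D1:**
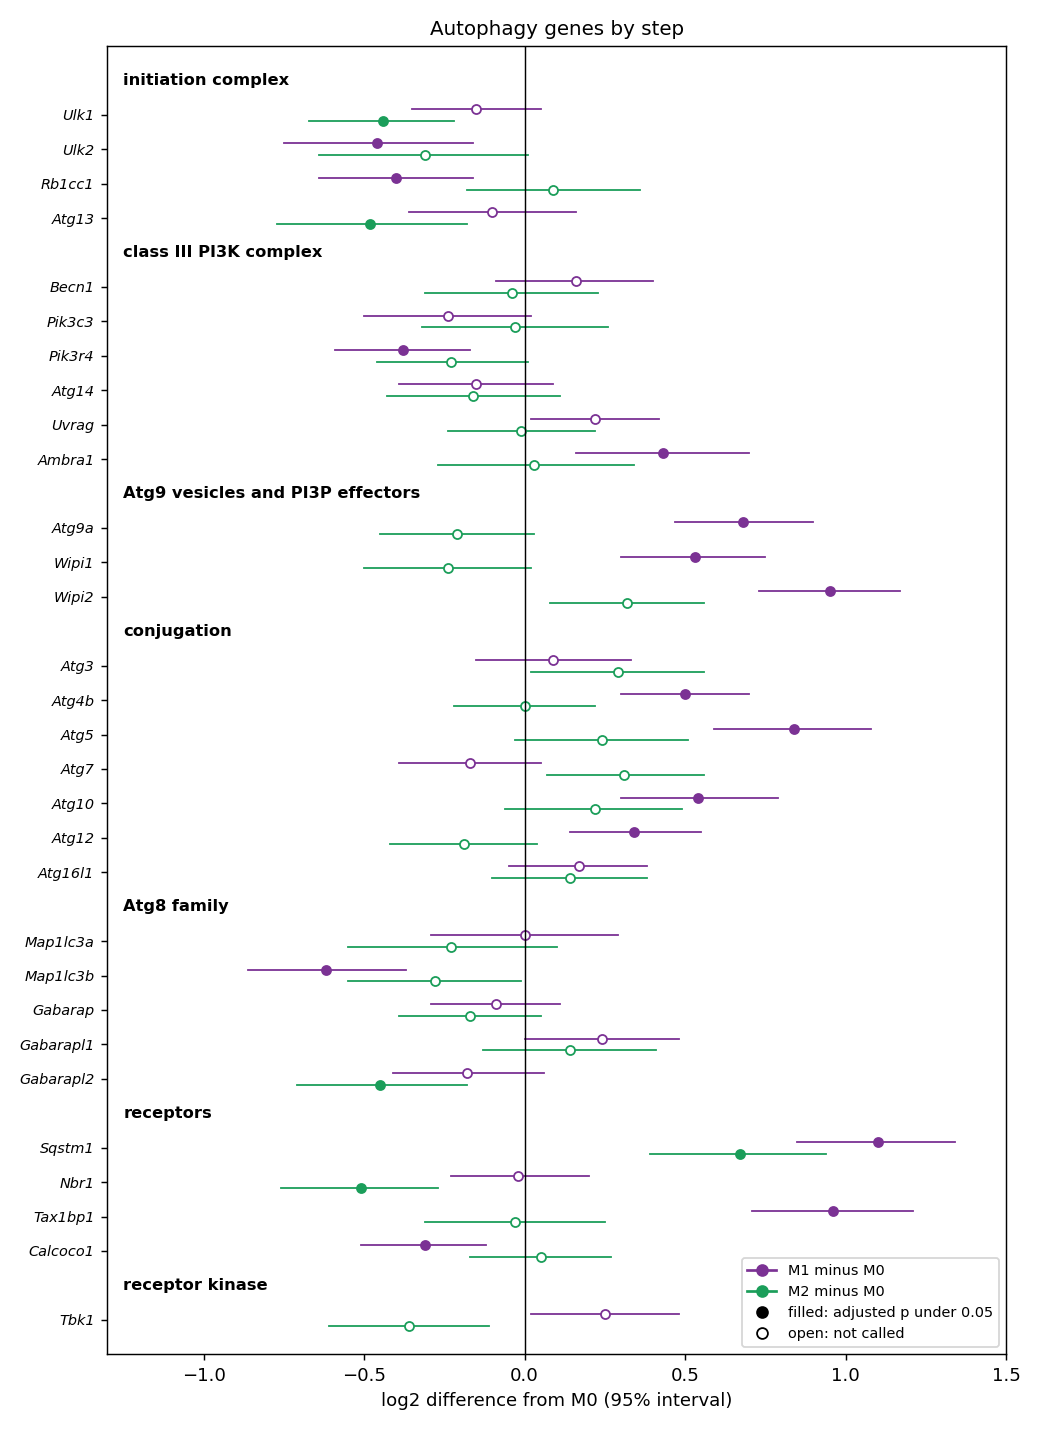
Log2 differences of the 30 measured autophagy genes, M1 minus M0 and M2 minus M0, grouped by step, with 95% confidence intervals from limma (3 M1, 2 M2 and 3 M0 arrays). Filled points were called at an adjusted p under 0.05. The listed ATG9 and WIPI genes and 4 conjugation genes lie to the right for M1, and Map1lc3b lies to the left at -0.62. Sqstm1 lies to the right in both comparisons, at 1.10 and 0.67.

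Promoter sequences are shown for a selection of genes called in M1 against M0, the 100 bases before the annotated transcript start in RefSeq on GRCm38.p6. Those of Wipi2, which rose more than Atg5, of Atg9a and of the upstream start of Tax1bp1 are not shown. They held no match to a searched motif in these bases. Of the 31 listed genes, 25 matched a promoter entry, 27 promoters in all. The first is Sqstm1 (chr11:50210821-50210920, minus strand), with the largest rise in M1. Tax1bp1 (chr6:52714065-52714164, plus strand, the downstream of its 2 annotated starts) and Atg5 (chr10:44268239-44268338, plus strand) rose in M1 but were not called in M2, and Map1lc3b (chr8:121590338-121590437, plus strand) had the largest fall. Capitals mark a match to a searched motif, an NF-κB form (GGGA and CC with 4 bases between) in Tax1bp1 and CACGTG in Atg5.
Sqstm1: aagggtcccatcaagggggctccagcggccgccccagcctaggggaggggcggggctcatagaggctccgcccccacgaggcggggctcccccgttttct
Tax1bp1: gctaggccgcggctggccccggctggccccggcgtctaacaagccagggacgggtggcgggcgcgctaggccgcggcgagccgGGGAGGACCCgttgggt
Atg5: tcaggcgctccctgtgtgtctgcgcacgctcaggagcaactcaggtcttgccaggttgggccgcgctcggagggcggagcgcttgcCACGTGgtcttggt
Map1lc3b: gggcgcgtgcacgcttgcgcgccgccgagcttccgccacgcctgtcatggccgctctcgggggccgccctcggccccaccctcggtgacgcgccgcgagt

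The shown stretches are rich in G and C, at 73.0% for Sqstm1, 79.0% for Tax1bp1, 67.0% for Atg5 and 79.0% for Map1lc3b. Matches were searched on both strands in the 250 bases before each start, and a match is a description of letters and not of a bound factor. CACGTG, the E-box core of the MiT/TFE factors, which include TFEB, was found in Atg3, Atg5 and Atg7 and in 6.02% of all 32851 promoters. The NF-κB form was found in Atg3, Sqstm1 and Tax1bp1 and in 17.6% of all promoters. TGACNNNGC, the core of the antioxidant response element that NRF2 binds, was found in Ulk2, Atg13 and Tax1bp1 and in 10.2% of all promoters. The core of the interferon-stimulated response element (GAAA, 2 bases, GAAA) and the spacing that STAT6 prefers (TTC, 4 bases, GAA) were in 2.98% and 5.85% of all promoters and in 0 of the members.

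Sqstm1 encodes p62, which binds ubiquitinated cargo and LC3 and also holds KEAP1, the inhibitor of the transcription factor NRF2. It measured 9722, 10053 and 10406 units on the M1 arrays, 6916 and 8074 units on the M2 arrays and 5182, 4869 and 4132 units on the M0 arrays. The 3 groups did not overlap, with M1 highest and M0 lowest. The mean was 10060 ± 342 units in M1 (SD, n = 3) and 4727 ± 539 units in M0 (SD, n = 3). On the log2 scale M1 differed from M0 by 1.10, or 2.14-fold (95% confidence interval 0.85 to 1.34, adjusted p = 1.9e-05 from limma). In M2 the mean was 7495 ± 819 units (SD, n = 2). The log2 difference of M2 from M0 was 0.67, or 1.59-fold (interval 0.39 to 0.94, adjusted p = 0.0039 from limma). Without M2 replicate 2 the M2 difference was 0.56 with an adjusted p of 0.052.

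Tax1bp1 and Nbr1 encode receptors of the same kind as p62, and they differed between the conditions in different ways. Tax1bp1, which also recruits the ubiquitin-editing protein A20, measured 2131, 1730 and 1613 units in M1, 877 and 952 units in M2 and 933, 963 and 896 units in M0. All M1 arrays lay above all others, while M2 and M0 overlapped. Against M0 the log2 difference was 0.96 in M1 (adjusted p = 7.0e-05 from limma, standard error 0.12) and -0.03 in M2 (interval -0.31 to 0.25). Nbr1, a larger relative of p62 in structure, measured 1224, 1079 and 1169 units in M1, 852 and 786 units in M2 and 1090, 1224 and 1193 units in M0. Here M2 lay below the other groups, which overlapped. The difference was -0.51 in M2 (standard error 0.11, adjusted p = 0.00963 from limma) and -0.02 in M1 (interval -0.23 to 0.20). Without M2 replicate 2 the M2 difference was -0.45 with an adjusted p of 0.0776.

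The fourth measured receptor gene, Calcoco1, which serves the turnover of the endoplasmic reticulum, was dimmer. It measured 76.1, 76.2 and 78.5 units in M1, 98.6 and 99.6 units in M2 and 94.6, 92.6 and 99.7 units in M0. The M1 arrays formed a narrow group below the others (log2 difference -0.31, standard error 0.09, adjusted p = 0.0269 from limma). In M2 the difference was 0.05. Tbk1, the kinase that phosphorylates optineurin and p62 and also drives type I interferon production, measured 1353, 1333 and 1111 units in M1, 827 and 828 units in M2 and 1075, 1090 and 1020 units in M0. It passed the test against M0 in neither condition (M1 0.25, interval 0.02 to 0.48, adjusted p = 0.129; M2 -0.36, interval -0.61 to -0.11, adjusted p = 0.0685).

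**Figure D2:**
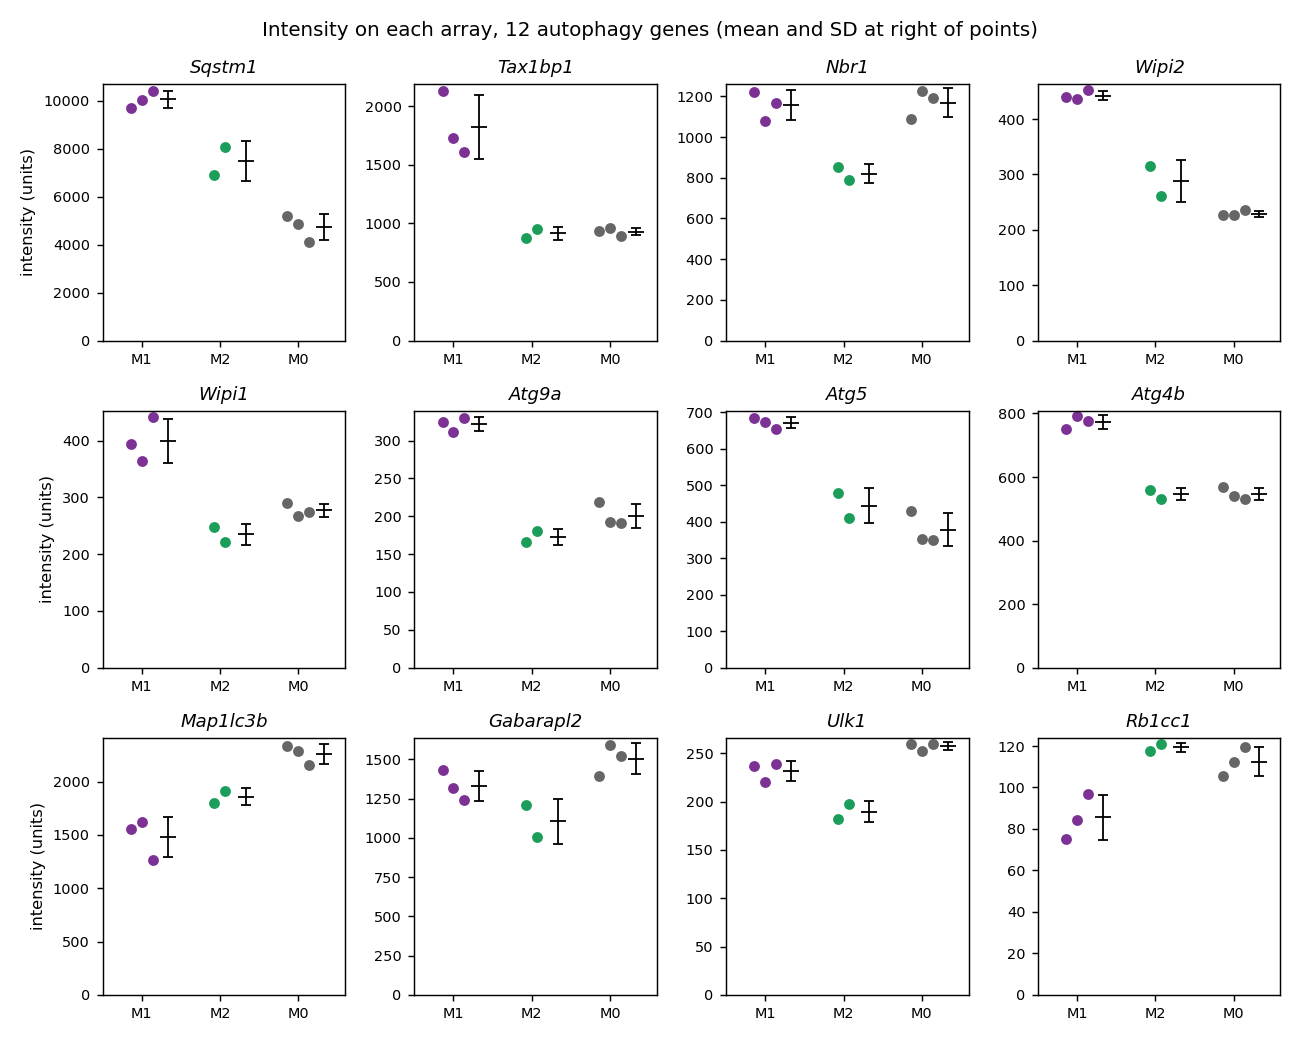
Intensity in units, on linear axes from 0, of selected autophagy genes on each array of M1, M2 and M0 macrophages, with a point for each array and, to the right of the points, the mean and SD of the 3, 2 and 3 arrays. Sqstm1 reaches 10406 units on an M1 array, against 4132 units on the lowest M0 array, and Map1lc3b shows the opposite order of the groups, with M0 highest.

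The proteins of the Atg8 family are attached to the membrane and bind the receptors. On the probe sets used, the family held 1 gene called lower in M1 and a different one called lower in M2, each against M0. Map1lc3b measured 1557, 1620 and 1269 units in M1, 1802 and 1915 units in M2 and 2337, 2291 and 2153 units in M0. The groups did not overlap, and their order was the reverse of that of Sqstm1. In M1 Map1lc3b was 1.53-fold lower than in M0 (log2 difference -0.62, interval -0.86 to -0.37, adjusted p = 0.00151 from limma). Its M2 difference was -0.28 (interval -0.55 to -0.01, adjusted p = 0.188). The call in M1 was kept with each of the 8 arrays left out.

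Gabarapl2, also known as GATE-16, measured 1435, 1320 and 1244 units in M1, 1209 and 1006 units in M2 and 1398, 1594 and 1524 units in M0. Both M2 arrays lay below all others (log2 difference -0.45, standard error 0.12, adjusted p = 0.0324 from limma), whereas M1 and M0 overlapped (-0.18, interval -0.41 to 0.06). Without M2 replicate 2 the M2 difference was -0.31 with an adjusted p of 0.228. A dimmer probe set of Gabarapl2, averaging under 64 units, was called lower in M1 (-0.62, adjusted p = 0.00104 from limma) and not in M2 (-0.15). With the mean of its probe sets, Gabarapl2 was also called lower in M1. Neither Map1lc3b nor Gabarapl2 was called between M1 and M2 on the probe set used. The other members of the family were not called, and the probe set of Map1lc3a is of a type (_x_at) whose probes can match other transcripts. In M1 the log2 difference was 0.00 for Map1lc3a (interval -0.29 to 0.29), -0.09 for Gabarap (interval -0.29 to 0.11) and 0.24 for Gabarapl1 (interval -0.00 to 0.48). In M2 it was -0.23 for Map1lc3a (interval -0.55 to 0.10), -0.17 for Gabarap (interval -0.39 to 0.05) and 0.14 for Gabarapl1 (interval -0.13 to 0.41).

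The group of ATG9 vesicles and PI3P effectors was higher in M1 in all of its 3 genes and was called in none of them in M2. Wipi2 encodes the PI3P-binding protein that recruits ATG16L1 to the growing membrane. It measured 439, 436 and 453 units in M1, 314 and 261 units in M2 and 226, 226 and 236 units in M0. M1 and M0 were each tight, with the more scattered M2 arrays between them. The log2 difference was 0.95 in M1 (1.93-fold, interval 0.73 to 1.17, adjusted p = 2.4e-05 from limma) and 0.32 in M2 (interval 0.08 to 0.56, adjusted p = 0.0912).

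Atg9a, whose product is a membrane protein that moves lipids between the leaflets of the membrane, measured 324, 312 and 329 units in M1, 166 and 181 units in M2 and 219, 192 and 191 units in M0. It rose in M1 by 0.68 on the log2 scale (standard error 0.10, adjusted p = 2.9e-04 from limma), and its M2 arrays were the lowest of the 8 (log2 difference -0.21, interval -0.45 to 0.03, adjusted p = 0.285). Wipi1, a relative of Wipi2, measured 394, 364 and 441 units in M1, 248 and 222 units in M2 and 290, 268 and 273 units in M0. The order of the groups was that of Atg9a, with a log2 difference of 0.53 in M1 (standard error 0.11, adjusted p = 0.00312 from limma) and -0.24 in M2 (interval -0.50 to 0.02). These 3 calls in M1 were kept with each array left out.

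The conjugation genes follow 2 parallel reactions. ATG7 activates ATG12 and the Atg8 proteins, ATG10 passes ATG12 on to ATG5, ATG3 passes the Atg8 proteins on to lipid, ATG16L1 places the ATG12-ATG5 conjugate on the membrane, and ATG4B trims the Atg8 proteins and later frees them. Of these genes, Atg4b, Atg5, Atg10 and Atg12 rose in M1, whereas Atg3, Atg7 and Atg16l1 were not called against M0.

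Atg5 measured 685, 673 and 655 units in M1, 478 and 411 units in M2 and 430, 354 and 349 units in M0. M1 lay above both other groups, which overlapped (log2 difference 0.84 in M1, standard error 0.11, adjusted p = 1.5e-04 from limma; 0.24 in M2, interval -0.03 to 0.51). Atg12 measured 810, 827 and 848 units in M1, 592 and 558 units in M2 and 624, 699 and 640 units in M0. The M1 arrays were again the highest and the M2 arrays the lowest (0.34 in M1, standard error 0.09, adjusted p = 0.0215 from limma; -0.19 in M2, interval -0.42 to 0.04). Atg10, a dimmer probe set, measured 95.5, 125 and 102 units in M1, 87.2 and 83.4 units in M2 and 76.2, 71.1 and 73.0 units in M0. It was 1.46-fold higher in M1 (0.54, standard error 0.11, adjusted p = 0.00391 from limma), and its M2 difference of 0.22 (interval -0.06 to 0.49) was not called.

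Atg4b measured 750, 793 and 777 units in M1, 559 and 532 units in M2 and 568, 541 and 530 units in M0. M2 and M0 coincided (log2 difference -0.00, interval -0.22 to 0.22), while M1 stood above them (0.50, standard error 0.09, adjusted p = 0.00162 from limma). For the uncalled genes of the group the M1 difference was 0.09 for Atg3 (interval -0.15 to 0.33), -0.17 for Atg7 (interval -0.39 to 0.05) and 0.17 for Atg16l1 (interval -0.05 to 0.38). Their M2 differences were 0.29 for Atg3 (interval 0.02 to 0.56, adjusted p = 0.175), 0.31 for Atg7 (interval 0.07 to 0.56, adjusted p = 0.103) and 0.14 for Atg16l1 (interval -0.10 to 0.38).

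At the initiation step no gene was called higher in either condition. Against M0, Ulk2 and Rb1cc1 were called lower in M1, and Ulk1 and Atg13 in M2. Between M1 and M2, Rb1cc1 alone of these genes was called. ULK1 and ULK2 are the related kinases of the complex, RB1CC1 (FIP200) is its scaffold, and ATG13 joins the kinase to the scaffold. Ulk1 measured 237, 220 and 239 units in M1, 182 and 197 units in M2 and 260, 253 and 260 units in M0. The groups did not overlap and M2 was lowest (log2 difference -0.44 in M2, interval -0.67 to -0.22, adjusted p = 0.0149 from limma; -0.15 in M1, interval -0.35 to 0.05). Without M2 replicate 1 the M2 difference was -0.39 with an adjusted p of 0.104.

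Atg13 measured 269, 243 and 273 units in M1, 235 and 173 units in M2 and 291, 284 and 266 units in M0. Its M2 arrays differed from each other by more than the groups of M1 and M0 did, and the difference of -0.48 (interval -0.77 to -0.18, adjusted p = 0.0388 from limma) was -0.26 with an adjusted p of 0.308 without M2 replicate 2. Against M0 the M1 difference was -0.10 (interval -0.36 to 0.16). Ulk2 measured 260, 275 and 275 units in M1, 297 and 299 units in M2 and 293, 432 and 401 units in M0. The first M0 array lay at the level of the M2 arrays, apart from the other two (M1 difference -0.46, standard error 0.13, adjusted p = 0.0297 from limma; M2 difference -0.31, interval -0.64 to 0.01). Rb1cc1 measured 75.2, 84.4 and 97.0 units in M1, 118 and 121 units in M2 and 106, 112 and 120 units in M0, so that M1 lay lowest (-0.40, standard error 0.11, adjusted p = 0.0226 from limma) and M2 overlapped with M0 (0.09).

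The class III PI3-kinase complex was the group with the smallest differences in M2, none of which was called (-0.23 to 0.03 on the log2 scale). In M1 1 gene rose and 1 fell. Ambra1, which binds beclin 1 and promotes the activity of the complex, measured 226, 205 and 249 units in M1, 152 and 194 units in M2 and 152, 169 and 184 units in M0. It rose by 0.43 on the log2 scale in M1 (standard error 0.13, adjusted p = 0.0274 from limma). Pik3r4, the regulatory subunit also called VPS15, measured 295, 316 and 282 units in M1, 339 and 323 units in M2 and 368, 404 and 391 units in M0. The M1 arrays were the lowest and the M0 arrays the highest (log2 difference -0.38 in M1, standard error 0.10, adjusted p = 0.0125 from limma; -0.23 in M2, interval -0.46 to 0.01).

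The catalytic subunit and the remaining partners were not called. The M1 differences were 0.16 for Becn1 (interval -0.09 to 0.40), -0.24 for Pik3c3 (interval -0.50 to 0.02), -0.15 for Atg14 (interval -0.39 to 0.09) and 0.22 for Uvrag (interval 0.02 to 0.42, adjusted p = 0.136). Becn1 encodes beclin 1, Pik3c3 the kinase VPS34, and Atg14 and Uvrag the subunits that direct it to early and late steps. Their M2 differences were -0.04 for Becn1, -0.03 for Pik3c3, -0.16 for Atg14 and -0.01 for Uvrag.

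The calls rested on few arrays. Among the 10 rises in M1, those of Ambra1 and Atg12 were lost when single arrays were left out, Ambra1 without M0 replicate 1 or 2 or M1 replicate 1 or 3 (0.36 to 0.44 on the log2 scale, adjusted p 0.0702 to 0.108) and Atg12 without M0 replicate 1 or 3 or M1 replicate 3 (0.31 to 0.33, adjusted p 0.0578 to 0.0792). Of the 5 falls in M1 only that of Map1lc3b was kept without M0 replicate 2, where Ulk2 was at -0.34 with an adjusted p of 0.148, Rb1cc1 at -0.40 with 0.0722, Pik3r4 at -0.35 with 0.0659 and Calcoco1 at -0.34 with 0.0661. Over the 8 arrays left out in turn, the call was kept 3 times for Ulk2 and for Calcoco1, 4 times for Rb1cc1 and 7 times for Pik3r4. Among the falls in M2 it was kept 7 times for Ulk1 and Nbr1, 5 times for Gabarapl2 and 3 times for Atg13.

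A direct comparison of the activated states gave 10 genes higher and 3 lower in M1 than in M2 macrophages, none of them by 2-fold, as 7.41% of all genes and 11.7% of those above 64 units did. Limma called 11.5% of all genes higher and 12.3% lower in this comparison, and 18.5% and 19.3% of those above 64 units, against 33.3% and 10% of the members. Taken either way these were 43.3% of the members, 23.8% of all genes and 37.8% of those above 64 units. Tax1bp1 differed most (log2 difference 0.99, standard error 0.13, adjusted p = 1.3e-04 from limma), followed by Atg9a (0.89, adjusted p = 8.5e-05), Wipi1 (0.76, adjusted p = 4.9e-04), Wipi2 (0.63, adjusted p = 0.00148) and Tbk1 (0.61, adjusted p = 0.00249). Tbk1 had been called against M0 in neither condition, and its M1 and M2 differences from M0 had opposite signs. The other genes higher in M1 were Atg5 (0.60), Atg12 (0.53), Atg4b (0.50), Nbr1 (0.50) and Sqstm1 (0.43, adjusted p = 0.031 from limma). This comparison used the same M1 and M2 arrays as the comparisons with M0, so its calls are not independent of those. Of the 9 genes called higher in M1 and not in M2 against M0, 7 were also called higher in M1 than in M2. Ambra1 (0.40, interval 0.09 to 0.70, adjusted p = 0.0702) and Atg10 (0.33, interval 0.05 to 0.60, adjusted p = 0.101) were not called. Of the 5 genes lower in M1 alone against M0, Ulk2 (-0.14, adjusted p = 0.617 from limma), Pik3r4 (-0.15, adjusted p = 0.399) and Map1lc3b (-0.33, adjusted p = 0.0883) were not called between M1 and M2. Nor were Ulk1 (0.29, adjusted p = 0.0745), Atg13 (0.38, adjusted p = 0.0775) and Gabarapl2 (0.27, adjusted p = 0.166), of the 4 lower in M2 alone.

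The genes lower in M1 than in M2 were Rb1cc1 (log2 difference -0.49, adjusted p = 0.0152 from limma), Atg7 (-0.48, adjusted p = 0.00891) and Calcoco1 (-0.37, adjusted p = 0.0231). Atg7, the activating enzyme shared by both conjugation reactions, measured 370, 431 and 382 units in M1, 540 and 562 units in M2 and 473, 419 and 439 units in M0, so that the M2 arrays were the highest. None of these 3 differences was called without M2 replicate 2, where the adjusted p was 0.0805 for Rb1cc1, 0.0585 for Atg7 and 0.0874 for Calcoco1. Without the same array Atg5 (0.49, adjusted p = 0.0534) and Nbr1 (0.44, adjusted p = 0.0586) were not called either, and without M2 replicate 1 Sqstm1 was at 0.32 with an adjusted p of 0.23. The call on Sqstm1 was kept with 3 of the 8 arrays left out, and was also lost without M0 replicate 2 and without each of the 3 M1 arrays (adjusted p 0.0507 to 0.0716).

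Most members had more than 1 probe set, 75 in all, and 23 of the 30 genes had at least 2. For the genes called in M1 against M0, 15 further probe sets of 9 genes averaged above 64 units. Of these, 13 had the sign of the probe set used, 11 gave the same call and 0 gave the opposite call. With dimmer probe sets included, 19 of 28 had that sign, 11 gave the same call and 0 the opposite one. Map1lc3b fell in M1 on 2 further probe sets (log2 differences -0.75 and -0.37, adjusted p = 8.1e-05 and 0.0406 from limma), of which the first was also called in M2 (-0.34, adjusted p = 0.0474), and Atg5 rose on 2 further ones (0.93 and 0.94, adjusted p = 2.9e-05 and 5.1e-05). Tax1bp1 rose on a further pair (0.64 and 0.85, adjusted p = 0.0114 and 0.00129), and a dimmer probe set of Sqstm1 rose by 0.71 (adjusted p = 1.4e-04). Ulk2 fell on both of its other probe sets above 64 units, in M1 (-0.97 and -0.56, adjusted p = 3.2e-04 and 0.00524) and in M2 (-0.59 on each, adjusted p = 0.0308 and 0.0137), where the probe set used was not called.

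Other genes gave less uniform values. Wipi1 was at 1.05 (adjusted p = 2.4e-04 from limma), 0.03 and -0.20 in M1 on its 3 further probe sets above 64 units, of which the first rose. Its dimmer probe sets were at -0.35 (adjusted p = 0.0516 from limma) and -0.14 in M1 and were not called. For Wipi2 the other probe set above 64 units gave 0.23 in M1 (adjusted p = 0.138), and for Atg4b it gave -0.20 (adjusted p = 0.183). In M2 against M0, 4 further probe sets of 4 called genes were above 64 units, 3 with the same sign and 0 with the same call. They gave -0.07 for Ulk1, -0.34 for Atg13, 0.09 for Nbr1 and 0.30 for Sqstm1 (adjusted p = 0.0946 from limma). The M2 calls of these genes thus rest on 1 probe set each, as well as on 2 arrays. For the genes called between M1 and M2, 15 further probe sets of 10 genes were above 64 units. Of these, 13 had the same sign, 10 the same call and 0 the opposite one. With dimmer probe sets included, 21 of 25 had the same sign, 10 the same call and 1 the opposite call. The opposite call was that of a dimmer probe set of Wipi1 (-0.40, adjusted p = 0.0495 from limma). The other bright probe set of Wipi2 was at -0.03 in that comparison and that of Atg4b at -0.01, and a pair of those of Wipi1 were at 0.04 and 0.01.

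**Figure D3:**
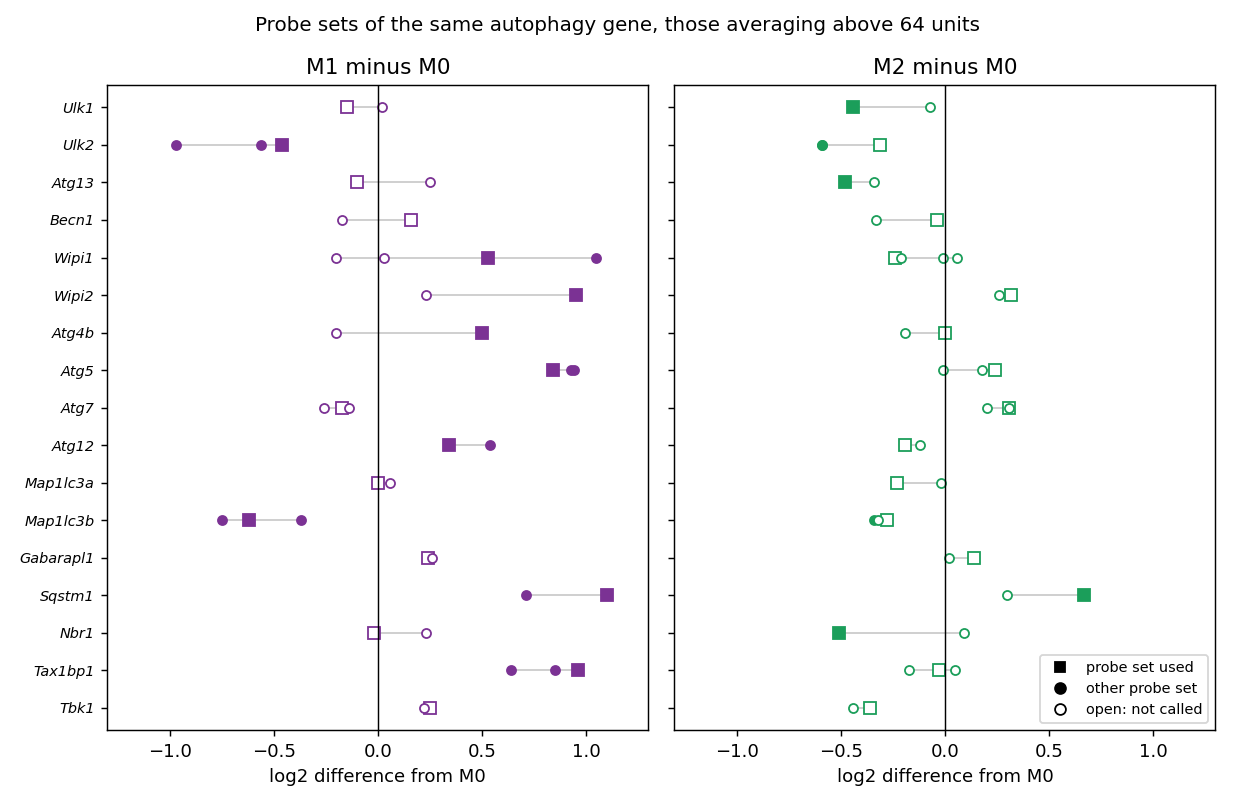
Log2 differences, M1 minus M0 and M2 minus M0, of every probe set averaging above 64 units for the autophagy genes with several such probe sets, where squares are the probe sets used, circles the others, and filled symbols were called by limma at an adjusted p under 0.05. The 3 probe sets of Atg5 lie between 0.84 and 0.94 in M1 and the 3 of Map1lc3b between -0.75 and -0.37, while those of Wipi1 spread from -0.20 to 1.05.

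A further list of 63 genes around the same pathway, of which 61 were measured, held other ATG genes, regulators, other selective receptors and the genes of fusion with the lysosome. In M1 10 of the 61 were higher and 18 lower than in M0, with a median log2 difference of -0.08, where limma called 13.7% of all genes higher and 11.5% lower (22.6% and 18.2% of those above 64 units). In M2 8 were higher and 11 lower, with a median of -0.06, where it called 8.03% of all genes higher and 6.43% lower (12.9% and 10.5% of those above 64 units).

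Among the other ATG genes 5 of 16 rose in M1 and 2 fell, beside 22.6% and 18.2% of all genes above 64 units. The falls were those of Tecpr1 (log2 difference -0.76, adjusted p = 9.1e-04 from limma) and of Wdr45, from the WIPI family (-0.51, adjusted p = 0.00215). Wdr45b, of the same family (-0.01), and Atg9b, a relative of Atg9a at 34.8 units in M0 (-0.49, adjusted p = 0.0563), were not called in M1. All of these were named after their values were seen. Atg2b, whose product carries lipids into the growing membrane, measured 211, 184 and 233 units in M1, 157 and 156 units in M2 and 106, 112 and 114 units in M0. The groups were apart, with M2 between M1 and M0 (log2 difference 0.92 in M1, adjusted p = 5.3e-05 from limma; 0.50 in M2, adjusted p = 0.0152). The M2 call was lost without M2 replicate 1 (0.50, adjusted p = 0.0789) or M2 replicate 2 (0.51, adjusted p = 0.0739). Atg4a, a protease related to Atg4b, measured 535, 625 and 565 units in M1, 402 and 364 units in M2 and 330, 363 and 323 units in M0 (0.76 in M1, adjusted p = 1.8e-04). Atg4c and Atg4d, proteases of the same family that were named after their values were seen, rose in M1 by 0.60 (adjusted p = 0.00306) and 0.58 (adjusted p = 0.00486), though neither passed the methods' t-test on either scale, log2 or linear. In M2 the largest rise was that of Nrbf2, a subunit of the PI3-kinase complex with ATG14, at 1147 and 1131 units against 620, 660 and 635 units in M0 (0.84, adjusted p = 4.1e-04), while M1 measured 576, 695 and 591 units (-0.05).

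The genes of fusion with the lysosome were higher in M1 in 0 of 13 cases and lower in 6, and none of the uncalled ones was higher at an unadjusted p under 0.05 from limma. Among all genes above 64 units 22.6% were called higher in M1 and 18.2% lower. The 6 lower genes were Plekhm1 (log2 difference -0.93, adjusted p = 2.0e-04 from limma) and, named after their values were seen, Rab7 (-0.47, adjusted p = 0.00205), Stx17 (-0.46, adjusted p = 0.00974), Snap29 (-0.47, adjusted p = 0.0258), Vps33a (-0.37, adjusted p = 0.0431) and Lamp2 (-0.40, adjusted p = 0.0197). PLEKHM1 is an adaptor that binds RAB7, the HOPS tether and the Atg8 proteins, STX17 and SNAP29 form the SNARE bundle of the autophagosome, VPS33A belongs to HOPS, and LAMP2 is a lysosomal membrane protein. Plekhm1 measured 677, 878 and 674 units in M1, 1441 and 1160 units in M2 and 1481, 1422 and 1323 units in M0, with M1 below the other groups. Rab7 measured 5704, 5696 and 5572 units in M1, 6807 and 7090 units in M2 and 7923, 7793 and 7811 units in M0, in 3 narrow groups. The falls of Snap29 and Vps33a were each lost without M0 replicate 2 or 3 or M1 replicate 1, Snap29 also without M1 replicate 2 and Vps33a also without M1 replicate 3 (adjusted p 0.068 to 0.103 for Snap29 and 0.0928 to 0.164 for Vps33a). That of Lamp2 was lost without M0 replicate 1 (-0.32, adjusted p = 0.0864) or M1 replicate 3 (-0.33, adjusted p = 0.0753), and that of Stx17 without M0 replicate 2 (-0.43, adjusted p = 0.0509). In M2 1 gene of this group was higher, Vps18 (0.37, adjusted p = 0.0443), and 2 were lower, Vps39 (-0.38, adjusted p = 0.039) and Stx17 (-0.43, adjusted p = 0.0394), all named after their values were seen. Each of these 3 calls was lost without M0 replicate 2 or 3 or either M2 array (adjusted p 0.0814 to 0.163 for Vps18, 0.0766 to 0.177 for Vps39 and 0.0941 to 0.193 for Stx17), and those of Vps18 and Vps39 also without M0 replicate 1 (adjusted p = 0.0951 and 0.0593) or M1 replicate 1 (adjusted p = 0.0586 and 0.0525).

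**Figure D4:**
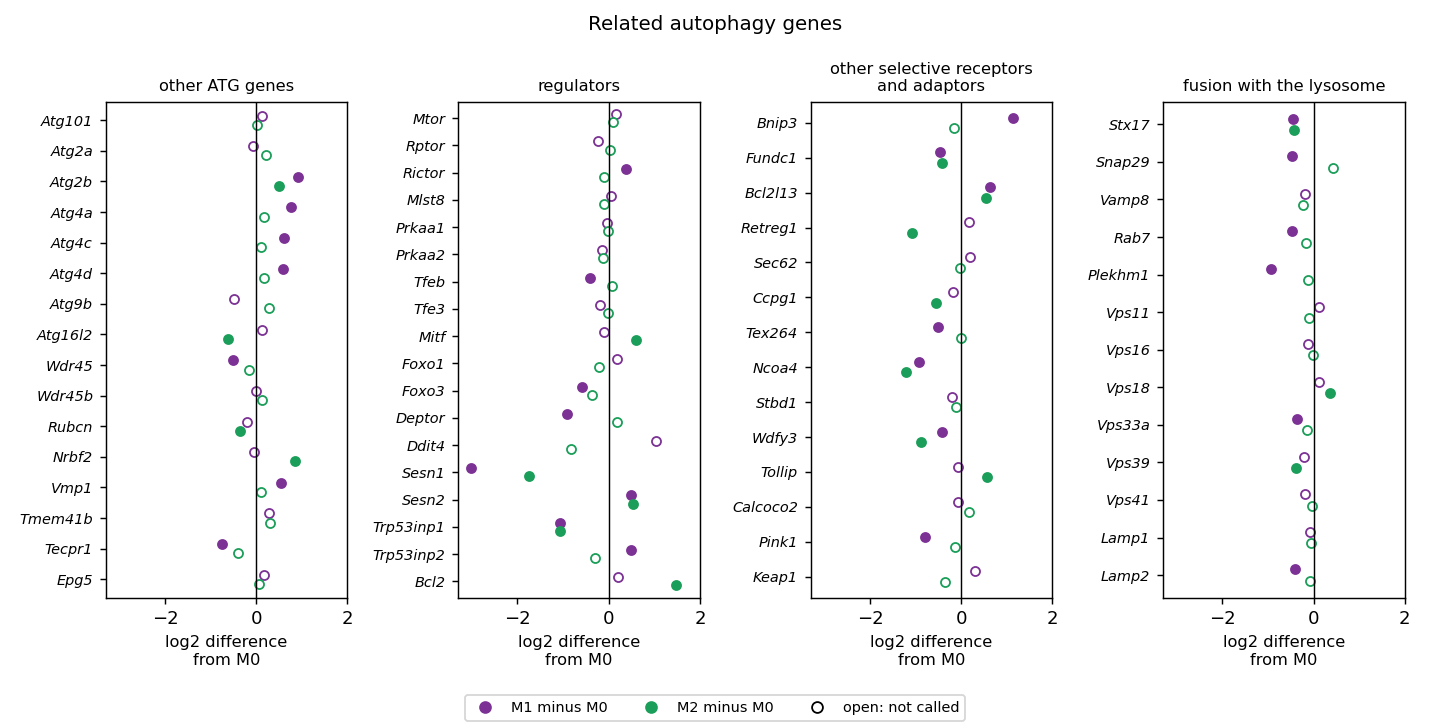
Log2 differences, M1 minus M0 and M2 minus M0, of 61 further genes of the pathway in 4 groups, where filled points were called by limma at an adjusted p under 0.05 and open points were not. In the panel of fusion with the lysosome 6 filled M1 points lie left of 0 and none to the right, and Sesn1 among the regulators is the farthest left, at -3.01 in M1.

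Among the regulators, Sesn1 showed the largest difference in both conditions. Its product, sestrin 1, senses leucine and restrains mTORC1. Sesn1 measured 266, 395 and 349 units in M1, 898 and 702 units in M2 and 1983, 3039 and 3147 units in M0, and M1 was lowest with M2 between the others. It was 8.03-fold lower in M1 than in M0 (log2 difference -3.01, standard error 0.19, adjusted p = 3.5e-07 from limma) and 3.36-fold lower in M2 (-1.75, standard error 0.21, adjusted p = 1.6e-04). Sesn2, of the same family and named after its values were seen, was higher in M1 (0.48, adjusted p = 0.00431) and in M2 (0.54, adjusted p = 0.00779). Trp53inp1, which moves between the nucleus and autophagosomes under stress, measured 413, 221 and 249 units in M1, 263 and 302 units in M2 and 543, 564 and 684 units in M0. It was lower in both activated states to a like degree (-1.07 each, adjusted p = 0.00164 in M1 and 0.00635 in M2), though without M2 replicate 1 the M2 difference was -0.97 with an adjusted p of 0.073.

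Of the listed MiT/TFE factors, which drive lysosomal and autophagy genes, Mitf rose in M2 and Tfeb fell in M1. Tfe3 was called in neither (-0.20 in M1, adjusted p = 0.214 from limma, and -0.01 in M2). Tfeb and Tfe3 were named after their values were seen. Tfec, a further factor of this family, was not in the list. The paper gives it, as Tcfec, as higher in M2 and lower in M1 than in M0. Mitf measured 1042, 1258 and 1084 units in M1, 1637 and 2041 units in M2 and 1228, 1253 and 1133 units in M0 (log2 difference 0.60 in M2, adjusted p = 0.00921 from limma). Without M2 replicate 2 it was 0.44 with an adjusted p of 0.103. Tfeb measured 506, 544 and 567 units in M1, 814 and 701 units in M2 and 762, 665 and 733 units in M0 (-0.42 in M1, adjusted p = 0.0129; 0.07 in M2), and its M1 difference was -0.37 without M0 replicate 1 (adjusted p = 0.0534) and also without M1 replicate 1 (adjusted p = 0.0539). Bcl2, the survival protein that binds beclin 1, was the regulator with the largest rise in M2, at 493 and 426 units against 164, 168 and 164 units in M0 (1.47, adjusted p = 4.9e-06), whereas M1 measured 173, 189 and 208 units (0.20).

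Of the other selective receptors and adaptors, 2 of 14 were higher and 5 lower in each condition against M0. Among all genes above 64 units, limma called 22.6% higher and 18.2% lower in M1, and 12.9% and 10.5% in M2. Bnip3, a mitochondrial receptor known as a target of the hypoxia factor HIF-1, measured 2175, 1398 and 1972 units in M1, 597 and 921 units in M2 and 732, 811 and 938 units in M0. It was 2.21-fold higher in M1 (log2 difference 1.14, adjusted p = 7.2e-04 from limma), and M2 overlapped with M0. Bcl2l13, also a mitochondrial receptor, rose in M1 (0.64, adjusted p = 7.6e-04) and in M2 (0.54, adjusted p = 0.0103), where the M2 call was lost without M2 replicate 1 (0.56, adjusted p = 0.0507) or M2 replicate 2 (0.52, adjusted p = 0.0685).

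Ncoa4, the receptor that delivers the iron store ferritin to autophagosomes, measured 1280, 1256 and 1178 units in M1, 971 and 1067 units in M2 and 1870, 2530 and 2718 units in M0. It was lower in both activated states (log2 difference -0.92 in M1, adjusted p = 3.0e-04 from limma; -1.20 in M2, adjusted p = 2.0e-04). Retreg1, a receptor for the endoplasmic reticulum also called FAM134B, measured 1447, 1347 and 1425 units in M1, 531 and 661 units in M2 and 1154, 1349 and 1234 units in M0, so that M2 stood alone below the others (-1.07 in M2, adjusted p = 1.1e-04; 0.18 in M1). Tollip, an adaptor that binds ubiquitin and LC3 and also dampens Toll-like receptor signalling, measured 1149 and 986 units in M2 against 723, 690 and 761 units in M0 (0.56, adjusted p = 0.011), and 715, 618 and 759 units in M1. Without M2 replicate 1 its M2 difference was 0.45 with an adjusted p of 0.11.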

How the data were processed

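RNA of 8 Affymetrix arrays of mouse macrophages was analysed (3 of M1, 2 of M2 and 3 of M0). The deposited table gives an intensity, summarized by the authors with RMA in GenePattern and kept on a linear scale, for each of 45101 probe sets. From these values log2 was taken, 64 control probe sets were left out and 45037 were tested with limma 3.58.1 in R 4.3.3, a mean per condition with no block, with Benjamini-Hochberg adjustment (5 residual and 6.95 prior degrees of freedom). Scripts ran in Python 3.11.15 with matplotlib 3.10.9. The platform annotation gave 1 symbol to 34945 probe sets, several to 932, and did not list 9160.

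The members and lists were chosen with earlier results of these data known. Every member called against M0 was named with all its values, the others with their differences, and of the related genes the 4 largest called rises and falls of each comparison. Genes named otherwise are marked as such. The fit was tested on simulated data. Alternatives were the methods' t-test, a fit of the compared groups, other variance, scaling, filter, threshold and probe set choices, a replicate block, and each array left out. The number of arrays limits the precision. Raw images were not analysed here.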

Additional observations from a re-analysis of the deposited data

How the results depend on the processing

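Against M0, the 10 autophagy genes higher in M1 became 1 with a 2-fold limit and 6 with the mean of a gene's probe sets. The 5 lower in M1 became 2 and 3 with the methods' t-test on log2 and linear values, 3 with values under 64 units set to 64, 1 at an adjusted p under 0.01 and 0 with a 2-fold limit. In M2 the 1 higher gene became 0 with either t-test, with a 2-fold limit and with probe sets ending in _at alone, and 2 when only probe sets above 64 units were tested, which added Wipi2. The 4 lower in M2 became 0 with either t-test or a 2-fold limit, 2 with median centring or the limit of 64 units and 1 at an adjusted p under 0.01. Between M1 and M2, the 10 higher in M1 became 3 and 2 with the t-tests and 0 with a 2-fold limit. The 3 lower became 1 with each t-test, at an adjusted p under 0.01 and with the mean of probe sets, 0 with a 2-fold limit and 5 with the probe set of largest variance, which added Gabarapl2 and Map1lc3b. Of the 61 measured related genes, the 10 higher in M1 became 6 and 5 with the t-tests and 1 with a 2-fold limit, and the 18 lower became 10 and 7, 2 with a 2-fold limit and 11 with the limit of 64 units. The 8 higher in M2 became 1 with either t-test or a 2-fold limit, 3 with the limit of 64 units and 4 at an adjusted p under 0.01, and the 11 lower became 0 with either t-test, 7 with the limit of 64 units, 6 at an adjusted p under 0.01 and 4 with a 2-fold limit. The cause of these changes was not tested.

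With single arrays left out, the autophagy genes called numbered 8 to 11 higher and 1 to 5 lower in M1 against M0, 0 to 1 and 1 to 5 in M2 against M0, and 9 to 10 and 0 to 3 in M1 against M2. The related genes numbered 9 to 11 and 13 to 18 in M1, and 3 to 9 and 5 to 12 in M2. The lowest counts came without M0 replicate 2 for the autophagy genes lower in M1 against M0, and without M2 replicate 2 for both counts in M2 against M0 and for those lower in M1 against M2. For the related genes in M2 they came without M2 replicate 2 (3 higher and 5 lower), and without M2 replicate 1 these counts were 4 and 5. Under the alternative choices of a gene's probe set, 4 called differences turned, none of them passing the limma test there. Ambra1 was at -0.26 in M1, Nbr1 at 0.09 in M2 and Vps18 at -0.14 in M2 with the probe set of largest variance, and Wipi1 was at -0.20 in M1 with probe sets ending in _at alone. The other probe set of Atg4b above 64 units was at -0.20 in M1.

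The arrays share replicate numbers, but no source says that a number marks a mouse. Deviations of arrays with the same number correlated at -0.172 to 0.0547 (7 pairs), against -0.15 to 0.19 for the 14 others, so the numbers were not taken to pair the arrays. With the replicate block the counts were 10 higher and 4 lower in M1 against M0, 1 and 1 in M2 against M0, and 10 and 3 in M1 against M2, and 7 related genes were lower in M2. The number of arrays, 2 in M2, limits the precision.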
